A study of Caenorhabditis elegans with 4 samples.

Results

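The Pol II peaks on the X chromosome of Caenorhabditis elegans L3 larvae are described here. They are all the rows of 1 combined peak list whose chromosome is X, 605 of 5942 peaks, or 10.2% of the list. Position alone chose them, so their widths, q-values and spacing took no part in the choice. The list was made from chromatin immunoprecipitation followed by sequencing (ChIP-seq) in 4 libraries from 2 numbered extractions, with 1 Pol II library and 1 input DNA library in each. All of the larvae were hermaphrodites of strain OP26, grown at 20 degrees Celsius and crosslinked with 2% formaldehyde. Their genotype is unc-119(ed3) on chromosome III with the integrated transgene wgIs26, which carries unc-119(+) and mab-5 tagged with TY1, EGFP and 3xFLAG. Input and Pol II libraries share this genotype, and no strain without the transgene was compared. Antibody 8WG16, which recognises the heptapeptide repeats at the C-terminal end of the largest Pol II subunit, is named for the Pol II libraries. The protocol text common to all samples instead describes anti-GFP serum and embryos, and the sample descriptions were followed here.

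Pol II transcribes all protein-coding genes, and a stretch of DNA precipitated with it marks a place where the enzyme is bound. The list does not tell recruited, paused and elongating enzyme apart, and whether the antibody detects these equally was not tested. Hermaphrodite worms carry a pair of X chromosomes and males a single one. In hermaphrodites a dosage compensation complex binds along both copies of X and lowers their transcription, so that the output of X is brought close to that of males. The worm X also differs from the autosomes in gene content, being poor in genes that are expressed in the germ line, and its gene density changes less between the middle and the ends. Whole larvae were used, so fewer cells with bound Pol II and less Pol II per cell cannot be told apart in any value below.

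The list gives a first base, a last base and a q-value for each peak and nothing else. The q-values compare precipitated with input reads and correct for multiple testing over all candidate regions, and −log10 q is larger for a more significant peak. The libraries were combined before the values were listed, so no value has an error between replicates, and differences between chromosomes are described without a test. Spreads are given between windows of X. Depth per library is unknown. The order of the q-values places the first listed peak at rank 96 and the last at rank 6037, so 95 regions of higher rank were not analysed here. Their chromosomes and widths are unknown, so the widest, most significant and emptiest places named below are those of the listed peaks. The list pairs no peak with a gene and uses build WormBase WS180. No annotation or genome of that build was used, so peaks are named by position and no sequence or gene is given.

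X carried fewer peaks and fewer covered bases per Mb than the pooled chromosomes II to V, and chromosome V carried fewer still. The 605 peaks lay between base 6645 and base 17685071, at 34.2 peaks per Mb from base 1 to the last peak. Chromosome V had 30.4 peaks per Mb, II had 46.7, IV had 52.2 and III had 65.4. The ratio of X to II to V together was 0.73, and it lay between 0.63 without chromosome V and 0.81 without III. Chromosome I is not part of these comparisons. X holds 10.2% of the list and II to V together 53.2%, so the rest of the list lies outside them. The X peaks covered 1159 kb, or 6.55% of the stretch, against 6.11% on V, 7.75% on II, 8.38% on IV and 9.15% on III. In covered bases per Mb, X was at 0.85 of II to V together, so the gap was smaller in bases than in peak number.

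Peaks on X were wide relative to the other chromosomes. The median was 995 bp, the quartiles were 429 and 2359 bp, and the extremes were 1 and 22089 bp. The medians were 959 bp on V, 765 bp on IV, 763 bp on II and 640 bp on III. The X median was 1.32 times that of II to V together, and 1.22 times after III, which has the narrowest peaks, was left out. Against V alone the medians differed by little beside the spread of widths within either chromosome. Moderate widths were less frequent on X: peaks of 250 to 499 bp made up 11.1% of X and 18.1% of II to V, and those of 500 to 999 bp 21.3% and 24.1%, whereas peaks under 250 bp had similar shares, 18.0% and 17.3%. From 1000 bp upwards the share of peaks was higher on X than on II to V pooled in every width class. From 2000 to 3999 bp, for instance, it was 16.03% against 12.3%. Chromosome V alone had a similar profile, with 13.3% of its peaks from 250 to 499 bp and 21.2% from 500 to 999 bp. Its shares exceeded those of X from 1000 to 1999 bp (20.22% against 20.17%) and from 4000 to 7999 bp (10.4% against 9.92%). From 8000 bp upwards they were 4.74% on V and 3.47% on X, and from 2000 to 3999 bp V had 13.7%.

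**Figure D1:**
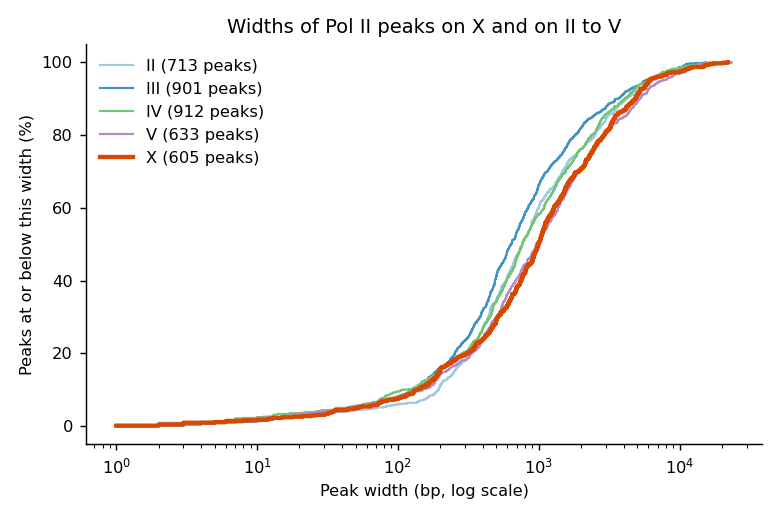
Share of peaks (vertical axis, percent) at or below each width (horizontal axis, bp, log scale) for X and chromosomes II to V; each line is 1 chromosome of the combined list. The X line runs to the right of those of II, III and IV through the middle of the range and close to that of V, with medians of 995 bp on X and 959 bp on V.

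A small number of broad peaks held much of the covered DNA of X. The 55 peaks of 5 kb or more were 9.09% of the peaks and 40.6% of the covered bases. The same share of bases was 39.5% on II to V together, where it ran from 35.3% on IV to 46.1% on V. The widest 10% of X peaks, 60 in number, held 42.7% of the covered bases, the lowest of the 5 chromosomes, whose other values lay between 43.7% on V and 48.1% on III. At the other end, 30 X peaks were 50 bp wide or less, 1 of them a single base, and together they held 0.051% of the covered bases. There were 16 X peaks of 10 kb or more.

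The 5 widest X peaks lay outside the first and last 3 Mb of the chromosome. The widest, 22089 bp, reached from 11464320 to 11486408 with a q-value of 7.76e-31. The next, 20216 bp from 3816052 to 3836267, was far more significant (q = 6.31e-161). The next in width, of 17536 bp, spanned 3111059 to 3128594, with q = 7.69e-62. The remaining peaks of the widest 5 were 16415 bp from 12503301 to 12519715 (q = 1.55e-152) and 15925 bp from 11228642 to 11244566 (q = 1.09e-27). Peaks of almost equal width thus differed in −log10 q by over 100 units, from 27.0 to 151.8 in the last pair. Of the 10 widest and the 10 most significant X peaks, 3 were in both groups.

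The most significant X peak was not among the 10 widest. It spanned 2827 bp, above the upper quartile of 2359 bp, from 17419161 to 17421987, near the right end of X, and had a q-value of 1.67e-282. A peak of 4987 bp from 4960141 to 4965127 followed with q = 9.76e-279. The third, 5062 bp from 11603040 to 11608101, had q = 3.16e-184, so a wide step separated the first 2 from all other X peaks. The narrowest X peak with a q-value of 1e-20 or less was 429 bp wide, from 16935064 to 16935492 (q = 9.89e-36). It lay next to a peak of 1166 bp, from 16933668 to 16934833, which was the eighth most significant on X (q = 7.18e-123). The opposite case was a peak of 11024 bp from 9408275 to 9419298 that reached only q = 1.79e-05, the widest on X above 1e-05. The peak nearest the left end, 162 bp from 6645 to 6806 (q = 0.00565), and the one nearest the right end, 2081 bp from 17682991 to 17685071 (q = 0.00519), were both close to the limit of the list, whose largest q-value was 0.0099.

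X peaks were wide but less significant. Their median −log10 q was 5.37, with quartiles of 3.06 and 12.3, and the medians of II to V lay between 5.89 on IV and 6.68 on II. Of the X peaks, 105 (17.4%) had a q-value no larger than 1e-20, against 19.5% on III, 20.2% on IV, 21.3% on II and 24.96% on V. For 1e-100 or less the share was 2.64% on X, 16 peaks, and between 3.84% on IV and 6.003% on V. These X peaks held 10.1% of the covered bases of X, whereas peaks past the same limit held between 16.9% on II and 20.8% on III. When the peaks of X and II to V were taken in the order of the list and cut into 5 equal parts, X had 13.3% of the first part and 20.1% of the last. Its share rose through each part between them, at 14.6%, 15.7% and 16.7%. Chromosome V, with a similar median width, showed no such order: it had 20.7% of the first part, 14.1% of the middle one and 18.6% of the last. The 95 unlisted regions of higher rank enter none of these values. As their chromosomes are unknown, the shares at 1e-100 and in the first part could differ with them.

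When peaks of equal width were compared, the difference to II to V pooled was largest among wide peaks. Peaks were divided into 8 classes of width, each about double the one before. X had a lower median −log10 q than II to V pooled in all 8 classes, and the lowest of the 5 chromosomes in 6 of them. From 1 to 124 bp the medians were 3.04 on X and 3.21 on II to V, a ratio of 0.95. In that class V was lower than X, at 2.99, and from 250 to 499 bp chromosome IV was lower, at 3.55 against 3.78. Listed peaks of X and II to V had a −log10 q of at least 2.00, close to the medians of the narrow classes. How far this limit keeps their ratios near 1 was not tested. From 1000 to 1999 bp X had a median of 7.18 (122 peaks) and II to V 10.8 (547 peaks), a ratio of 0.67. From 4000 to 7999 bp the medians were 20.9 (60 peaks) and 41.2 (246 peaks), a ratio of 0.51, and from 8000 bp upwards they were 43.8 (21 peaks) and 88.8 (100 peaks), a ratio of 0.49. Median widths within these classes were close, for instance 5118.5 bp on X and 5300 bp on II to V from 4000 to 7999 bp. The widest class was wider on X, at 11650 against 10603.5 bp.

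**Figure D2:**
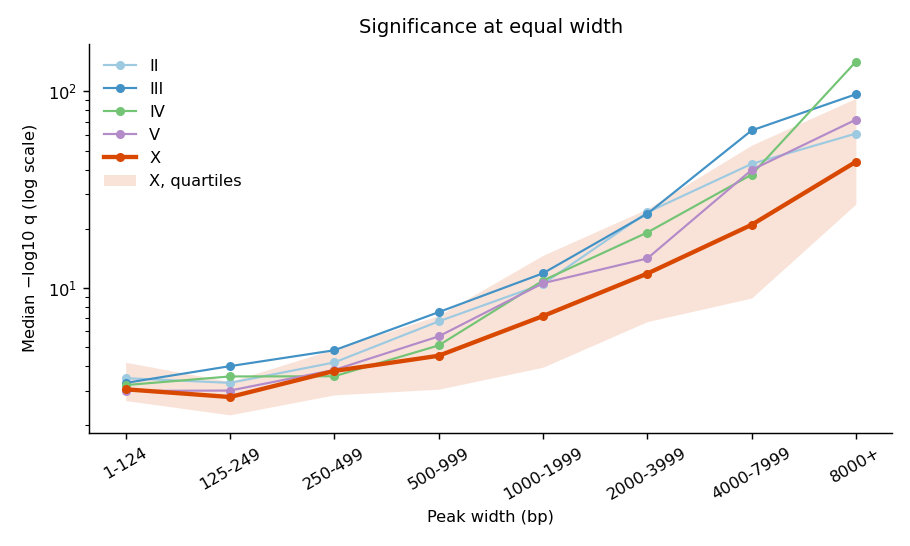
Median −log10 q (vertical axis, log scale) of peaks in 8 classes of width (horizontal axis, bp) for X and chromosomes II to V; the shaded band spans the quartiles of X. The X line lies lowest from 500 bp upwards. Pooled II to V is not drawn, and the ratio of X to it falls from 0.73 in the class of 500 to 999 bp to 0.49 in the widest class.

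Counted peak by peak, 409 of 605 X peaks, 67.6%, had a lower −log10 q than the median of II to V in their width class. The 95% Wilson interval of this share, 63.8% to 71.2%, covers counting error over peaks only, and all peaks come from the same combined libraries. The same count for each other chromosome against the remaining 3 gave 41.3% on III, 48.2% on II, 55.5% on IV and 57.0% on V. The X share lay between 64.6% and 69.4% when II, III, IV or V was left out of the reference. It was 63.2% for the 87 peaks of the first 4 Mb of X, 66.6% for the 347 peaks of the middle and 72.4% for the 163 peaks of the last 4 Mb of full windows, so it was above 50% in each stretch. The broad peaks on X were not uniformly weak: 11 of 55 (20.0%) had a q-value above 1e-20, within the range of 12.1% on III to 24.6% on V. The median −log10 q of broad peaks was 40.1 on X, 44.8 on IV, 49.6 on II, 50.3 on V and 95.9 on III. The highest −log10 q of a listed peak of 5 kb or more was 183.5 on X and at least 288.9 on each of II to V. That contrast rests on the limit of 5 kb, since the X peak of 4987 bp falls just short of it: from 4000 to 7999 bp the highest value was 278.0 on X, above 273.2 on III and 241.5 on V and below 303.4 on II and 303.7 on IV. Reads per chromosome in the input and Pol II libraries, which also enter q, are not in the list, and their part in these values was not tested. The 95 unlisted regions of higher rank are also missing from these medians, shares and highest values, and their effect was not tested.

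Peak number per window varied less along X than along II, IV and V, and it was lowest in the first 2 Mb. In 35 full windows of 500 kb counted from base 1, the number of peaks per window was 17.1 ± 6.94 (mean and SD), with a lowest value of 1, a median of 17 and a highest value of 31. Covered bases were 32.5 ± 13.1 kb per window, from 0.685 to 55.7 kb. Of the 35 windows, 29 (82.9%) lay between 0.5 and 1.5 times the mean. The same share was 81.5% on III, 70.6% on IV, 50% on II and 31.7% on V. Leaving out the first 4 windows gave 18.5 ± 5.86 peaks over the other 31, with a range of 9 to 31. These were not level either. Windows from 4000001 to 9000000 held 16 to 31 peaks each, and those from 9000001 to 13500000 held 10 to 22. Covered bases did not fall alongside, at 18.7 to 48.0 kb in the former and 21.5 to 55.7 kb in the latter.

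Flatness of this kind was shared with chromosome III. The coefficient of variation between windows was 0.41 on X, 0.36 on III, 0.46 on IV, 0.65 on II and 0.76 on V. Sparse peaks vary more by counting alone. With that part taken off (the variance minus the mean), the coefficient was 0.33 on X, 0.32 on III, 0.42 on IV, 0.62 on II and 0.72 on V. In covered bases X, at 0.40, lay beside IV at 0.39 and III at 0.45. By raw counts, neighbouring windows of X were also less alike. The correlation between each window and the next was 0.38 over 34 pairs on X, against values from 0.47 on III to 0.84 on V. It is given as a description since neighbours share their position. Variation from counting was not taken off here, and it weighs most on X. The variance over the mean was 2.82 on X and from 4.30 on III to 9.82 on II. How far this lowers the correlation on X was not tested. A window with more peaks did not always have more covered bases: Spearman's rho between both was 0.54 over the 35 windows of X and at least 0.79 on II to V.

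**Figure D3:**
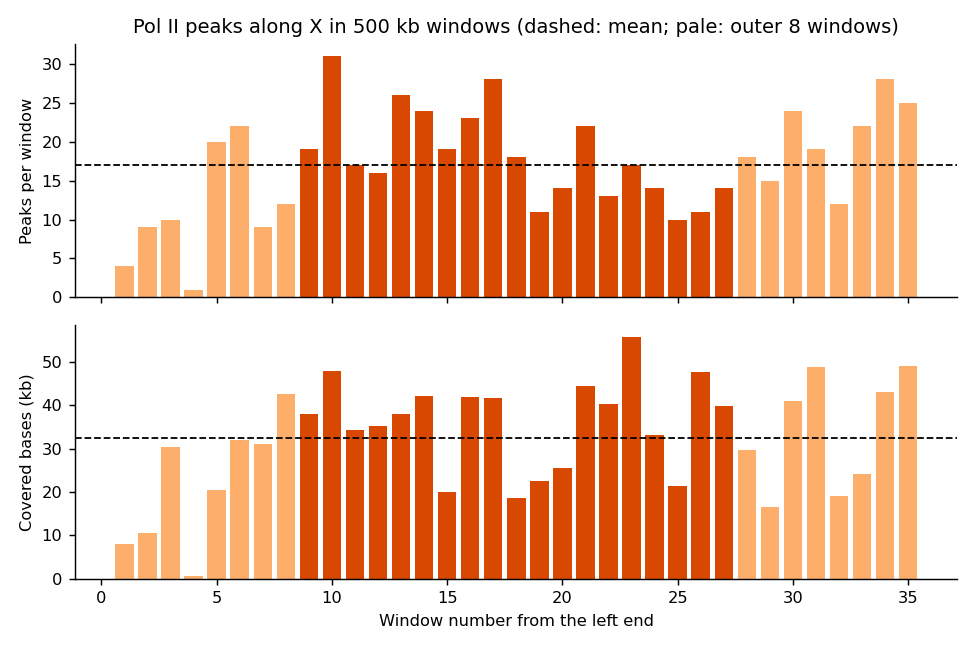
Number of Pol II peaks (upper panel) and covered bases in kb (lower panel) in each of the 35 full 500 kb windows of X, numbered from the left end; dashed lines mark the means of 17.1 peaks and 32.5 kb, and pale bars mark the outer 8 windows at each end. The first 4 windows are low, and the fourth holds 1 peak.

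The fullest window of X by peak number reached from 4500001 to 5000000 and had 31 peaks and 48.0 kb covered. The windows from 8000001 to 8500000 and from 16500001 to 17000000 had 28 peaks each, with 41.6 and 43.2 kb. By covered bases the order was different. The window from 11000001 to 11500000 came first with 55.7 kb from 17 peaks, followed by that from 17000001 to 17500000 with 49.1 kb from 25 peaks and that from 15000001 to 15500000 with 48.9 kb from 19 peaks. The emptiest windows were mostly in the first 2 Mb. From 1500001 to 2000000 there was 1 peak of 685 bp, from 1 to 500000 there were 4 peaks, and the window from 500001 to 1000000 held 9, as did the one from 3000001 to 3500000.

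The left end of X held fewer peaks than the right end. The first 8 windows, 4 Mb, had 87 peaks or 10.9 ± 7.18 per window. The last 8 full windows had 163, or 20.4 ± 5.37 per window, and the 19 windows between them 18.3 ± 6.02. The ratio of right to left was 1.87 in peak number and 1.54 in covered bases (272.0 against 176.1 kb). In single windows the ends overlapped, with 1 to 22 peaks on the left and 12 to 28 on the right. The contrast was strongest outermost: the first 2 Mb held 24 peaks and the last 2 Mb before the final peak 86. The rest of the left end, from 2 to 4 Mb, had 63 peaks in 4 windows, or 15.8 ± 6.24 per window, and 31.6 kb covered per window. Set per window beside the right end, with 34.0 kb, this gave ratios of 1.29 in peak number and 1.08 in covered bases, both differences being within the spread between windows. With the left end moved to 2 to 6 Mb, which also takes in 4 windows of the middle, the ratios were 1.12 and 0.97. Widths were similar, with medians of 1063 bp in the left, 994 bp in the middle and 902 bp in the right stretch, and so was the share of broad peaks, at 9.20%, 9.51% and 7.98%.

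An unequal pair of ends was not particular to X. The ratio of right to left over 8 windows was 4.39 on II, 1.34 on V and 1.08 on III, and on IV it was 0.49, with fewer peaks on the right. The 87 peaks of the left 8 windows of X were more than the 44 on II and 38 on V and fewer than the 201 on III and 212 on IV. Its 163 on the right lay between 103 on IV and 193 on II, with 51 on V and 217 on III. In the outermost 2 Mb the order was different. On the left, X with 24 peaks stood beside II and V with 27 each, below III with 84 and IV with 113. On the right, X with 86 peaks stood beside II with 85 and III with 98, and IV and V had 35 and 39.

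**Figure D4:**
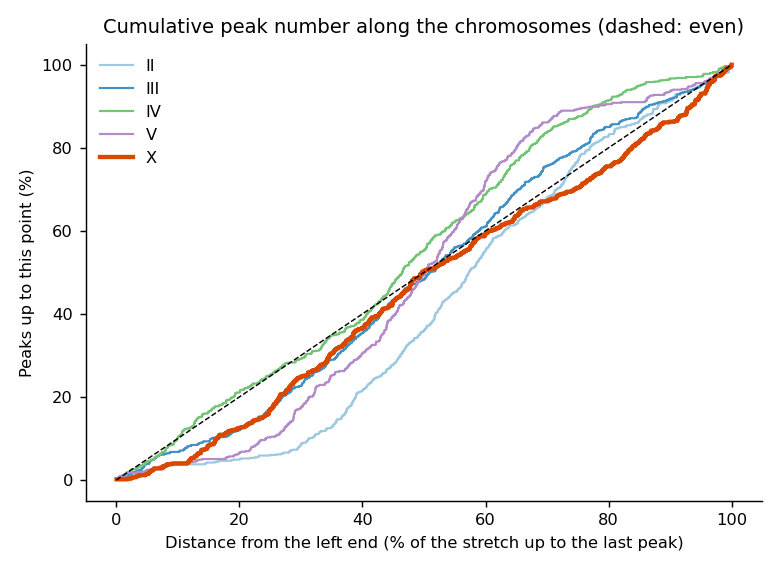
Percent of a chromosome's peaks (vertical axis) reached at each distance from its left end (horizontal axis, percent of the length to the last peak) for X and II to V; the dashed diagonal marks an even spread. The X line starts flat, as the first 2 Mb hold 24 of 605 peaks, and reaches the diagonal near the middle of the chromosome. From there it lies below the diagonal again over most of the way to the right end.

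Stretches of X without a listed peak were longest in the same left end. The longest, 447.4 kb, reached from 1591821 to 2039243, the next, 327.2 kb, from 6807 to 334045, and the third, 223.2 kb, from 1089137 to 1312304. A stretch of 197.0 kb from 12201930 to 12398947 and one of 178.2 kb from 659232 to 837447 completed the longest 5, so 4 of them began within the first 2 Mb. Together, 22 gaps of 100 kb or more took up 3.61 Mb, or 20.4% of X up to the last peak. Their share was 7.95% on III, 19.0% on IV, 25.9% on II and 43.1% on V. Of the 22, the left 4 Mb held 7, with 1553 kb in total. The middle, with 19 windows against 8 at either end, held 9 with 1229 kb, and the right end 6 with 825 kb.

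The spacing of X peaks was set beside that of the same peaks placed uniformly over X, with gaps of at least 200 bp, the smallest in the list. For this placement the shares follow in closed form, as means over all placements, and no p-value was derived. Short gaps were more frequent than in uniform placement. Another peak lay within 1 kb of 143 X peaks, 23.6%, where uniform placement gave 5.71%. The 95% Wilson interval of the observed share was 20.4% to 27.2%. It treats peaks as independent, although each short gap counts for both of its peaks, so it is too narrow even for counting error. The ratio of observed to calculated share, 4.14, compares with 4.15 on V, 3.81 on II, 3.78 on IV and 3.02 on III. On III the observed share was 33.3% and the calculated one 11.0%. Within 5 kb the shares were 47.8% and 29.7% on X, a ratio of 1.61, against 2.00 on V and 1.41 to 1.60 on II, III and IV.

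By the median gap X came closer to an even spread than II to V, and by the longest gap it did not stand out. The median gap was 14.2 kb on X and 19.0 kb by calculation, and it was 0.52 of the mean gap. On II to V the median gap lay between 0.36 of the mean on IV and V and 0.42 on II. Although V has fewer peaks per Mb, its median gap was shorter than that of X, at 11.3 kb. Gaps over 20 kb made up 41.4% on X against a calculated 48.2%, and gaps over 50 kb 17.4% against 15.9%. The 22 gaps of 100 kb or more compare with 15.2 by calculation on X. On V there were 41 with 24.5 calculated, on II 21 with 4.28, on IV 22 with 2.86 and on III 8 with 0.60. The longest gap of X was 2.36 times the calculated mean of 189.6 kb, and the ratio was 1.94 on III, 2.404 on IV, 3.68 on V and 4.69 on II.

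**Figure D5:**
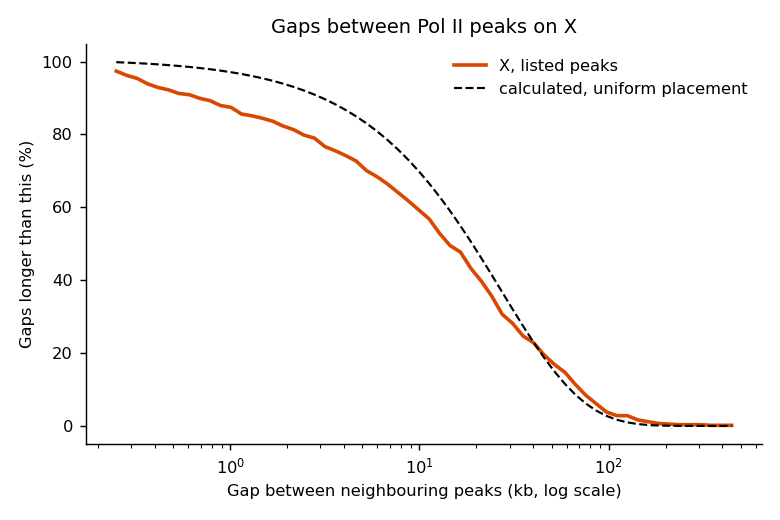
Percent of the 604 gaps between neighbouring X peaks that are longer than each length (vertical axis) against that length in kb (horizontal axis, log scale); the solid line shows the listed peaks and the dashed line the value calculated for uniform placement of the same peaks. The solid line lies below the dashed one up to 20 kb (41.4% against 48.2%) and above it from 50 kb (17.4% against 15.9%).

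Close neighbours on X came mostly in pairs. Joining peaks with gaps of 1 kb or less gave 530 runs, of which 462 (87.2%) were single peaks, 63 were pairs and 5 had 3 or more peaks. Runs of 3 or more numbered 9 of 559 runs on V, 18 of 593 on II, 29 of 740 on IV and 40 of 723 on III. Pairs outnumbered them there too, with 50 on V, 75 on II, 102 on IV and 82 on III. The largest X run held 5 peaks in 8105 bp, from 16630697 to 16638801. Its peaks differed widely: the widest, 4235 bp, had q = 4.81e-11, a neighbour of 1595 bp had q = 1.10e-57, and a piece of 128 bp at its right edge had q = 0.00461. The other runs of 3 peaks reached from 15353387 to 15364328, from 16397639 to 16406156, from 6059789 to 6065935 and from 7134555 to 7136589. The widest run of more than 1 peak spanned 15449 bp, from 4978576 to 4994024, and was shorter than the widest single peaks, which remain the longest runs of X. Whether such runs are separate sites or pieces of 1 occupied stretch was not tested.

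The fullest stretches of X were covered by peaks almost as densely as the fullest elsewhere. The 100 kb with most covered bases, from 10599551 to 10699550, held 31.6 kb in 6 peaks. Most of this came from a peak of 14911 bp from 10652728 to 10667638, with q = 6.33e-78, and from another of 11650 bp from 10684073 to 10695722, with q = 3.33e-119. The next, from 11391902 to 11491901, held 31.2 kb in 8 peaks, including the widest peak of X, and the third, from 6723105 to 6823104, held 29.0 kb in 9 peaks. The fullest 100 kb of the other chromosomes held 31.9 kb on II, 36.2 kb on III, 32.0 kb on IV and 33.3 kb on V. In peak number X was lower: its fullest 100 kb, from 16933668 to 17033667, held 13 peaks, against 16 on V, 17 on II, 18 on IV and 19 on III. That stretch begins with the strong peak of 1166 bp and its narrow neighbour of 429 bp named above.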

How the data were processed

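Per the labels, chromatin of L3 hermaphrodites was precipitated for Pol II and sequenced with input DNA. Peaks were called with PeakSeq on build WormBase WS180, per the file headers and source field. Not given in the sources used here are the aligner, the read filters, the PeakSeq version and how libraries were combined. The authors deposited 1 q-value per peak, that is, an adjusted p-value, with the first and last base of each peak as other values.

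From these, widths, gaps, −log10 q and counts by midpoint were computed. Windows of 500 kb ran from base 1, and only those ending before the last peak of a chromosome were used. Uniform placement used the closed-form distribution of random spacings with the listed widths and gaps of at least 200 bp. The 8 width classes began at 1, 125, 250, 500, 1000, 2000, 4000 and 8000 bp. The procedures were tested on simulated placements. No test between groups was made, because 1 combined list has no replicates.

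Named were the 5 widest and 5 most significant X peaks, the 5 longest gaps, the 3 highest and lowest windows, the 3 fullest runs and 100 kb stretches, the extremes of width against q, and the outermost peaks. A tie for the lowest windows and for runs of 3 peaks was named in full. The eighth peak by q, the members of the largest run and of the fullest stretches, and the fullest 100 kb by peak number were added after their values were seen. The chromosome, the comparisons and the lists were chosen with earlier results of these data known. Computations used Python 3.11.15 with scipy 1.17.1, numpy 2.4.6 and pandas 2.3.3, and figures matplotlib 3.10.9.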

Additional observations from a re-analysis of the deposited data

How the results depend on the processing

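Of 60 recomputed values of 10 results on X, 50 stayed on the same side of 1 and within 1.5 times the given value, or for shares within the Wilson interval. These are not independent checks, and some could hardly move. Windows of 250 kb leave the mean per 500 kb unchanged by construction, windows of 1 Mb or shifted ones recount nearly the same peaks, and leaving out 1 chromosome keeps most of the reference. The left-to-right contrast depended most on the choice of stretch. With ends of 2 Mb the ratio of right to left was 3.63 in peak number and 2.73 in covered bases. With the left end moved to 2 to 6 Mb, past its sparse start and into the middle, it was 1.12 in peak number and reversed to 0.97 in covered bases. With 2 to 4 Mb alone, per window, it was 1.29 and 1.08, with no reversal. The last 2 alternatives were chosen after the data were seen, as were values without the first 2 Mb of X, merged peaks, unlisted regions and left-out chromosomes for the ratios of X to II to V in peak number. The left-out chromosomes for width and covered bases were also added then. With only peaks of q 1e-05 or less, which removes peaks by construction, windows of X held 8.97 peaks, and 13.2% of peaks had a neighbour within 1 kb. Limits of 500 bp and 5 kb moved that share to 15.7% and 47.8%, and the ratio to uniform placement to 7.20 and 1.61. If the 95 unlisted regions were all on X, its ratio to II to V in peaks per Mb was 0.84. The share of X peaks below the median of II to V at equal width ranged from 64.6% to 69.6% over 7 alternatives, with 16 width classes among them.

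No paired analysis was possible because each listed value stands for all libraries together, which also leaves no replicate to omit. Depth is unknown, so regions beyond the q limit of the list cannot be judged.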

Other observations

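Isolated peaks on X were not narrower than peaks with close neighbours. The 106 X peaks with no other peak within 20 kb, 17.5% of all, had a median width of 967.5 bp and a median −log10 q of 5.38. The 143 peaks with a neighbour within 1 kb had medians of 913 bp and 5.09, and the 356 peaks between these limits 1033 bp and 5.65. Broad peaks of 5 kb or more were 9.43%, 5.59% and 10.4% of these groups. On II to V, 9.37% of peaks were isolated, with a median width of 924 bp, and 14.5% of the isolated peaks were broad. The most isolated X peak was the outermost one on the left, 327.2 kb from the next. It was followed by a peak of 1086 bp from 15884891 to 15885976 (q = 4.06e-11), with no other peak within 148.7 kb, and by the lone peak of the emptiest window, from 1591136 to 1591820 (q = 3.56e-06), 135.4 kb from its nearest neighbour.

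Neighbouring peaks on X had little in common. Over 604 neighbouring pairs, Spearman's rho was 0.12 for width and 0.04 for −log10 q, given as a description, since each peak enters 2 pairs.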
